A study of Mus musculus with 8 samples.

Results

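Chromatin remodellers and histone-modifying enzymes were followed through the first step of mouse embryonic stem (ES) cell differentiation, in total RNA and in the RNA that came down with ribosomes. They were chosen by a rule on gene symbols that uses no measured value, although it was written with earlier results of these data known, from families such as Smarc, Arid, Chd, Ino80, Brd, Baz, Kat, Kmt, Setd and Tet. The rule leaves out Chd4, Hdac1 and Hdac2, so the CHD and deacetylase groups below are not whole families. The symbols picked 54 of the 3160 genes of the table. By role they were 12 acetyltransferases and their complex partners, 10 SWI/SNF subunits, 10 lysine methyltransferases, 5 CHD remodellers, 5 members of the INO80, SWR1 and other SNF2 complexes, 4 ISWI proteins, 2 deacetylases (Hdac5 and Sirt1), 1 arginine methyltransferase (Prmt10, now named Prmt9) and 1 TET dioxygenase (Tet1). The symbol rule also took in 4 genes with other roles, Arid4b, Mllt6, Mllt10 and Set. Smarca4, Smarcd1 and Tet2 match the rule but were absent from the table, which the authors had filtered, so they were not analysed here. The SWI/SNF and TET groups are thus not whole families either.

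The cells were E14Tg2A, a mouse ES cell line. They were grown on gelatin in serum with leukaemia inhibitory factor (LIF), the cytokine that holds ES cells undifferentiated. Epiblast-like aggregates (ELA) were the same line after 2 days as floating aggregates in a serum-free, defined medium without LIF. In both stages the cells were treated with cycloheximide, which stalls ribosomes on their messages, and lysed. A part of each lysate was kept as input (total RNA), and ribosomes were pulled from the rest with an antibody to the endogenous large-subunit protein Rpl10a (Rpl10a-IP). The 2 stages and 2 fractions made 4 groups of 2 replicates, 8 libraries in all.

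Remodellers such as the SWI/SNF, ISWI, CHD and INO80 complexes use ATP to slide, eject or exchange nucleosomes. Histone acetyltransferases and methyltransferases write marks on histone tails that open or close chromatin, and deacetylases remove acetyl groups. ES cells carry unusually open chromatin, which becomes more restricted as pluripotent cells are primed for differentiation, and remodellers of the SWI/SNF and CHD families are known to be needed for ES cell identity.

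Depth limited the input side of every comparison with ELA. The ELA input libraries held 159587 and 410192 reads over the table, the ES inputs 5380139 and 3898414, and the Rpl10a-IP libraries between 16076207 and 23483388. For the 54 genes the median was 62 and 154 reads in the ELA inputs, and the lowest was 6. The authors dropped ELA input replicate 1 for poor quality, and it was left out of the fits of ES enrichment and ribosome-bound RNA. In the other comparisons, fitted on all 8 libraries, leaving it out moved no count of calls by more than 1.5 times. Adding it back to the ES enrichment fit cut the depleted genes from 14 to 6. The 2 ELA inputs differed by no more than counting noise (chi-square over degrees of freedom 0.957), in a table filtered on how well replicates agreed, and they were also summed as 1 sample. All values below are normalised counts, that is reads divided by 1 factor per library (trimmed mean of M values), and changes are differences of log2(normalised count + 1) tested with limma, with p-values adjusted over all 3160 genes and a threshold of 0.05. The deposited table held only genes whose 2 Rpl10a-IP over input ratios lay close (SD at most 0.1998 of the mean in ELA and 0.1995 in ES). The table was thus chosen on replicate agreement, and what this does to p-values and counts of calls was not tested. On simulated libraries of these depths the share of false calls among ELA enrichment and total RNA calls was above the threshold. Sources gave the replicates as duplicate samples of 1 line, so p-values measure the spread between such samples. Stage markers followed the labels: Nanog, a naive pluripotency factor, changed by -2.90 (log2) in total RNA and Dnmt3b, a DNA methyltransferase of the primed epiblast, by 2.62. Pou5f1, a pluripotency factor of both stages, changed by -1.18 in total RNA and -1.73 in ribosome-bound RNA. Of the lists, 5 of 9 naive, 1 of 2 general pluripotency, 2 of 6 primed, 1 of 3 neural and 1 of 4 fibroblast markers were in the table, and 0 of 4 endoderm and 0 of 3 mesoderm markers. Nes, a neural progenitor gene, changed by 2.51 and Vim, a mesenchymal gene also active in ES cells, by -0.90, and their part in the results was not tested.

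Transcript levels, compared between genes only as normalised counts per kb of the longest coding transcript, spanned a wide range among the 54 genes. Set, a histone chaperone and inhibitor of histone acetylation, stood highest in ES input at 9274 per kb, and Smarcc1, the core scaffold subunit of the ES cell SWI/SNF complex, followed at 1108 per kb. At the other end lay Chd3, an ATPase of the NuRD complex, at 26.6 per kb and Hdac5, a class IIa deacetylase, at 30.6 per kb. Processed pseudogenes of Set may take part of its reads, which makes its values uncertain.

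The first comparison asked how total RNA of these genes differed between ELA and ES. Of the 54, 25 were higher and 13 lower in ELA input, where 34.5% and 35.8% of all genes were called higher and lower, and their median change was 0.19 against -0.02 over all genes. In a second fit, which added the replicate number as a block and adjusted every library for GC content and the length of transcripts, 20 were higher and 20 lower (32.7% and 37.5% of the genes with a transcript length), with a median of 0.01. The plot of changes in total against ribosome-bound RNA shows each gene. These are bulk cultures, in which fewer cells with a transcript and less of it per cell cannot be told apart.

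Kmt2e, a SET-domain protein of the MLL family, rose most in total RNA. Its normalised counts were 415 and 442 in ES input and 1903 and 1781 in ELA input, a change of 2.10 (SE 0.12) on the log2 scale (limma adjusted p = 1.31e-17). Counts of Setd7, a lysine methyltransferase with histone and non-histone substrates, were 380.5 and 327 in ES input and 1251 and 1505 in ELA input, a change of 1.96 (SE 0.12). Chd7, a CHD remodeller found at enhancers, had 2027 and 1867 in ES input and 7422 and 5841 in ELA input (1.76 (SE 0.11)). For each of these genes both ELA inputs lay above both ES inputs, which adds no support, since they were picked among the largest called rises. Arid2, the subunit that defines the PBAF form of SWI/SNF, went from 1133 and 1354 to 3453 and 3593 (1.51 (SE 0.11)). Setd1a, a catalytic subunit of the COMPASS H3K4 methyltransferases, measured 963 and 863 in ES input and 2800 and 2226 in ELA input (1.45 (SE 0.12)). In the mouse annotation used here (GENCODE M1) 51.8% of the exon bases of Setd1a are shared on the same strand with Hsd3b7. Its reads may thus belong in part to that gene. On the opposite strand 11.7% of the exon bases of Kmt2e overlap Srpk2 and 12.7% of those of Mllt10 overlap Dnajc1. The strand used in counting was not stated, so the effect of these overlaps is not known.

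Mllt6, a partner of the H3K79 methyltransferase Dot1l, fell most. Its counts were 840.1 and 775 in ES input and 190.3 and 148 in ELA input, a change of -2.26 (SE 0.13) (limma adjusted p = 7.35e-17), although the ELA values rest on only 7 and 14 reads. Kat2b, the acetyltransferase PCAF, had 888 and 956 in ES input and 245 and 297 in ELA input (-1.77 (SE 0.12)), the latter from 9 and 28 reads. Kat6b, an H3 acetyltransferase of the MYST family, dropped from 3237 and 3340 to 1223 and 859 (-1.68 (SE 0.12)). The ELA inputs lay below both ES inputs for all 3 genes, which were likewise picked among the largest called falls. Sirt1, an NAD-dependent deacetylase, went from 1714 and 2158 to 979 and 965 (-0.98 (SE 0.11)), and Tet1, which oxidises 5-methylcytosine, from 6539 and 6957 to 3752 and 3275 (-0.94 (SE 0.10)). Each of these 5 rises and 5 falls was called in the same direction with the length and GC correction.

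**Figure D1:**
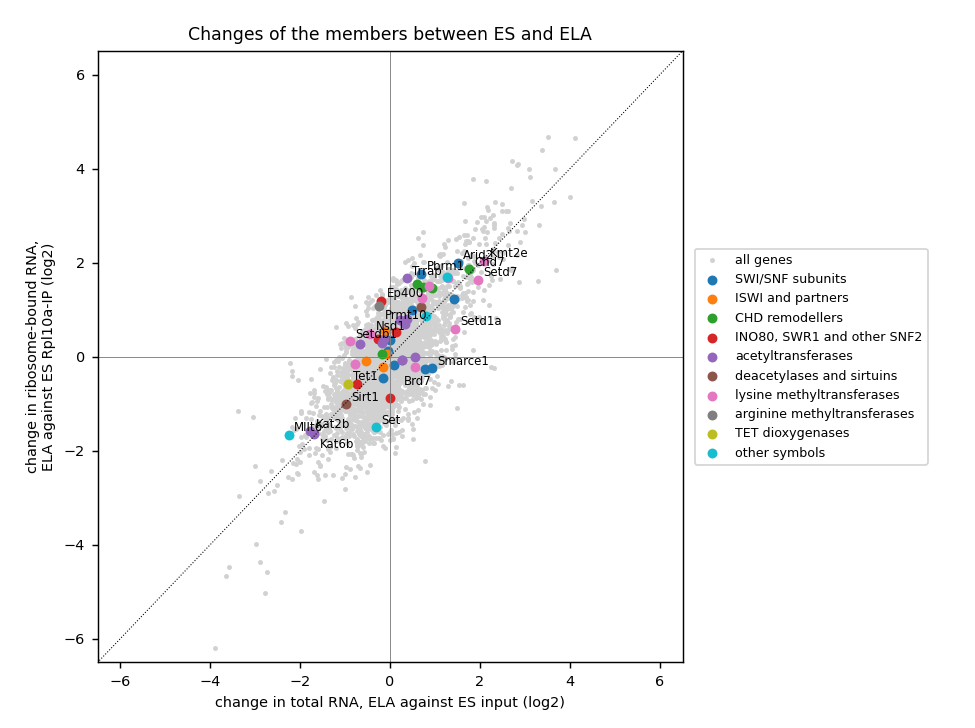
Change from ES to ELA in total RNA (x axis, log2) against the change in ribosome-bound RNA (y axis, log2) for all 3160 genes (grey) and the 54 chromatin genes (coloured by role); the dotted line marks equal change. Kmt2e, Chd7 and Arid2 sit high on both axes, Mllt6, Kat2b and Kat6b low on both, and Smarce1, Brd7 and Setd1a lie far below the line while Ep400, Prmt10, Trrap and Setdb1 lie above it.

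The sequence next to the start is shown for genes whose total RNA changed; no binding or chromatin was measured here. Promoter entries from RefSeq matched 39 of the 54 genes, and in 15 of these the 100 bases before the entry's start lay wholly outside the span of the gene, the other entries using a start further in. Of the 15, the 2 with the largest called falls and the 2 with the largest called rises were taken. The lines give those 100 bases, 5′ to 3′ on the gene's strand, with capitals for a GC box on either strand.
Sirt1 (GRCm38.p6, chr10:63339036-63339135, minus strand): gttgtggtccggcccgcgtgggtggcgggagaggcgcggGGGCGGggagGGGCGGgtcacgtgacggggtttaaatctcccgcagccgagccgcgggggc
Setdb1 (GRCm38.p6, chr3:95357203-95357302, minus strand): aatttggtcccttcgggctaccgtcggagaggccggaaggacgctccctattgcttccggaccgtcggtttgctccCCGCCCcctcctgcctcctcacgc
Setd1a (GRCm38.p6, chr7:127777289-127777388, plus strand): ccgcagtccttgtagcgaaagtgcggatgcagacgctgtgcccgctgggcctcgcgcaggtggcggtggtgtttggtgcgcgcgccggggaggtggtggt
Setd7 (GRCm38.p6, chr3:51560824-51560923, minus strand): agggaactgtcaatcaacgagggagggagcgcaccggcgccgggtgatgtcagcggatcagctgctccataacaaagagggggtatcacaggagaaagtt
Both strands were searched for the GC box as GGGCGG, the CCAAT box as these 5 letters, and the TATA box as TATAAA. Sirt1 had 2 GC boxes and Setdb1 had 1, and these windows of Setd1a and Setd7 held none of the 3 motifs. Over the entries of all 39 genes the GC box was present in 18 windows (46.2%, against 24.7% of all 32851 promoter windows), the CCAAT box in 3 (7.69% against 18.9%) and the TATA box in 0 (against 5.56%). The 39 windows were 1 per gene, the entry nearest the gene's start, while the 32851 were all entries of all genes, expressed here or not. The shares are thus not like for like. A match describes these letters in this window and shows no binding.

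The ribosome-bound fraction was then compared between stages on the deeper Rpl10a-IP libraries. Of the 54 genes 32 were higher and 12 lower in ELA Rpl10a-IP (41.1% and 42.3% of all genes), with a median change of 0.38 against -0.02 over all genes. With the block and the length-GC adjustment above, the counts were 18 higher and 20 lower (39.1% and 38.7% of genes), and the median was -0.05. Of the 32 genes called higher, 17 stayed so with the correction, 9 were not called and 6 (Arid1a, Ino80, Ino80d, Kmt2d, Nsd1 and Setd1a) were called lower.

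Kmt2e, Arid2 and Chd7 were also among the largest rises in the ribosome-bound RNA. Kmt2e counts were 361 and 324 in ES Rpl10a-IP and 1358 and 1455 in ELA Rpl10a-IP, a change of 2.04 (SE 0.10). Arid2 went from 1382 and 1374 to 5505 and 5559 (2.00 (SE 0.09)), the change being 4.01-fold, and Chd7 from 1916 and 1690 to 6545 and 6534 (1.86 (SE 0.09)). In all 3 the stages lay apart, which again follows from the choice of the largest called rises. Pbrm1, the polybromo subunit of PBAF, rose from 1520 and 1348 to 4529 and 5236 (1.77 (SE 0.09)), and Mllt10, another Dot1l partner, from 743 and 713 to 2299 and 2426 (1.70 (SE 0.09)). Brd7, which like Arid2 and Pbrm1 belongs to PBAF, changed the other way, by -0.26 (SE 0.10). With the correction the 5 rises stayed called, at 1.42 for Kmt2e, 1.23 for Arid2, 0.90 for Chd7, 1.03 for Pbrm1 and 1.44 for Mllt10.

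Falls in the ribosome-bound RNA were led by Mllt6, from 945 and 813 to 285 and 267 (-1.66 (SE 0.10)), Kat6b, from 2873 and 2611 to 919 and 845 (-1.63 (SE 0.09)), and Kat2b, from 1076 and 1057 to 336 and 371 (-1.59 (SE 0.10)). The ELA Rpl10a-IP values of Mllt6 rested on 1436 and 909 reads and those of Kat2b on 1695 and 1263. These falls thus rest on more reads than those in the shallow ELA inputs, but in another fraction, not in total RNA. Set went from 30794 and 31576 to 10746 and 11299 (-1.50 (SE 0.09)) and Sirt1 from 2405 and 2390 to 1193 and 1177 (-1.02 (SE 0.09)). Tet1 went from 6613 and 5999 to 4131 and 4327 (-0.57 (SE 0.09)). With the correction all 6 stayed lower, at -2.61 for Mllt6, -2.29 for Kat6b, -1.76 for Kat2b, -1.16 for Set, -1.12 for Sirt1 and -1.75 for Tet1. The plot of normalised counts per library shows these genes in all 8 libraries.

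Ribosome enrichment, the Rpl10a-IP over the input value, was taken within each stage to ask how strongly each message was bound relative to the other genes. Each library was scaled by 1 factor, so a change in binding shared by most genes cannot be seen. The authors state the same limit for their own normalisation. In ES 6 of the 54 genes were enriched and 14 depleted (19.5% and 20.0% of all genes), and the median was -0.05. Smarca5, the ISWI ATPase known as SNF2H, had the highest enrichment, with ratios of 1.71 and 1.5 in the 2 replicates (log2 0.68 (SE 0.09), limma adjusted p = 8.33e-13). Smarcad1, an SNF2-type remodeller active at heterochromatin, had ratios of 1.4 and 1.3, Prmt10 of 1.28 and 1.33, Sirt1 of 1.4 and 1.11 and Trrap, the large scaffold of the SAGA and NuA4 acetyltransferase complexes, of 1.28 and 1.15. Lowest were both COMPASS enzymes, Setd1b at 0.602 and 0.598 and Setd1a at 0.653 and 0.631, followed by Hdac5 at 0.622 and 0.751, Kmt2d, which places H3K4 monomethylation at enhancers, at 0.762 and 0.731, and Kat8, the H4K16 acetyltransferase, at 0.753 and 0.831. The ES counts rest on single libraries: without ES input replicate 1 they were 2 and 7, without ES input replicate 2 they were 6 and 9, without ES Rpl10a-IP replicate 1 they were 4 and 9, and without ES Rpl10a-IP replicate 2 they were 5 and 3. With ELA input replicate 1 added to the fit (all 8 libraries), 5 genes were enriched and 6 depleted. Sirt1 was not called without ES input replicate 1, Kmt2d was not called without ES Rpl10a-IP replicate 2, and Prmt10 was not called in either of these fits. Trrap kept its call among these 4 omissions only without ES Rpl10a-IP replicate 2, and Kat8 lost it in each of them and with the length and GC correction.

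In ELA 27 genes were enriched and 13 depleted (36.8% and 37.2% of all genes), with a median of 0.27 against -0.01 over all genes. With the same correction, 19 were enriched and 23 depleted (37.9% and 36.1% of genes), with a median of -0.04. Prmt10, an arginine methyltransferase, had ELA ratios of 3.47 and 3.03 (log2 1.69 (SE 0.14)), with only 6 and 17 reads in the ELA inputs. Trrap had ratios of 2.86 and 3.09, Ep400, the ATPase of the NuA4-type complex, of 2.45 and 2.74, Pbrm1 of 2.6 and 2.22 and Setdb1, the H3K9 methyltransferase that silences retroviral elements in ES cells, of 2.18 and 2.37. With the correction these 5 stayed enriched, with log2 values of 1.82 for Prmt10, 0.84 for Trrap, 0.68 for Ep400, 0.85 for Pbrm1 and 0.97 for Setdb1. Depleted most were Depleted most were Setd1b at 0.323 and 0.373, Setd1a at 0.325 and 0.387, Smarce1, the HMG-box subunit BAF57 of SWI/SNF, at 0.398 and 0.506, Ino80c, a small INO80 subunit, at 0.407 and 0.526 and Set at 0.493 and 0.544. The plot of enrichment per replicate shows that Setd1a and Setd1b were low in both stages, whereas Smarce1, Brd7 and Set were near or above 1 in ES.

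**Figure D2:**
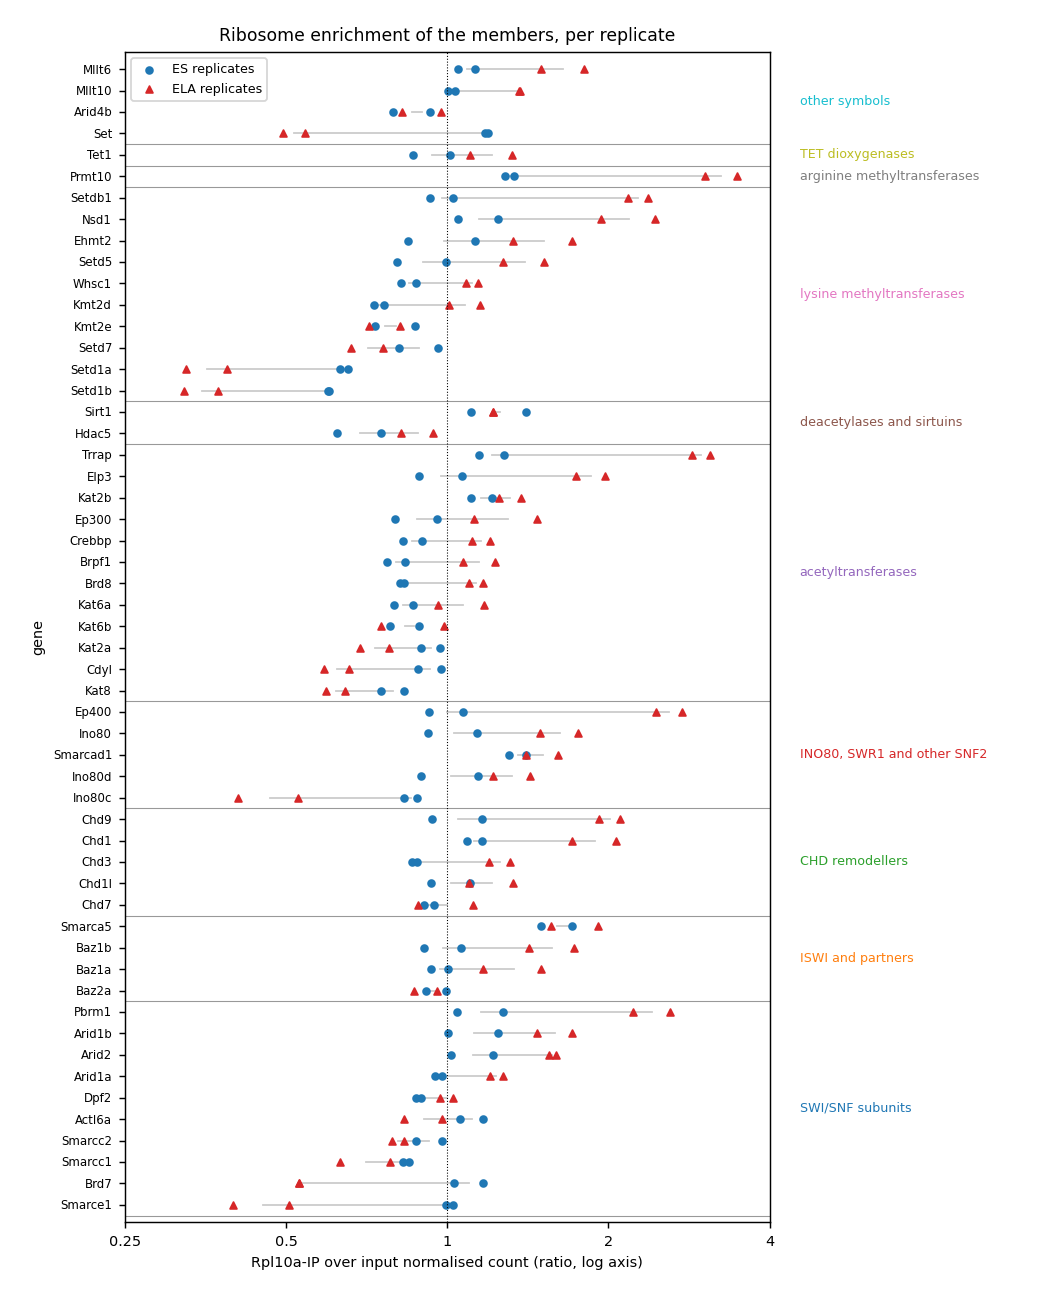
Rpl10a-IP over input ratio of normalised counts (x axis, log scale) of each of the 54 chromatin genes (y axis, grouped by role), with blue circles for the 2 ES replicates, red triangles for the 2 ELA replicates and a grey line between the stage means. Red points lie to the right of blue for Ep400, Trrap, Setdb1, Pbrm1 and Prmt10, and to the left for Smarce1, Brd7, Set and Ino80c.

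The difference of enrichment between stages was tested as an interaction of stage and fraction over the 8 libraries. Enrichment was higher in ELA for 29 of the 54 genes and lower for 7 (28.4% and 27.7% of all genes), with a median of 0.36 against 0.01. In the second fit, with the length and GC correction, it was higher for 10 and lower for 17 (27.5% and 25.9% of genes), with a median of 0.02. Of the genes called higher, 10 stayed so with the correction (Brd8, Chd1, Chd9, Ehmt2, Elp3, Ep400, Pbrm1, Setdb1, Trrap and Prmt10), 17 were not called, and Ino80d and Tet1 were called lower. All 7 genes called lower stayed lower: Brd7, Cdyl, Ino80c, Set, Setd1a, Setd1b and Smarce1. The count of higher genes was 17 without ES input replicate 1 and 16 without ES Rpl10a-IP replicate 2, and with the ELA inputs summed as 1 sample 28 were higher and 9 lower. Scaled by total reads, 20 were higher and 11 lower.

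Ep400 showed the largest rise in enrichment. Its ratios were 1.07 and 0.926 in ES and 2.45 and 2.74 in ELA, a difference of 1.38 (SE 0.16) or 2.61-fold (limma adjusted p = 1.29e-08). The gene (NCBI gene 75560, chromosome 5, 110664373 to 110770927 of GRCm38.p6) had input counts of 1704 and 1746 in ES and 1686 and 1346 in ELA, the ELA values just below the ES ones (a change of -0.20 (SE 0.11), not called), while its Rpl10a-IP counts went from 1822 and 1616 to 4136 and 3689. Its partner Trrap, which shares the NuA4 complex with it, had Rpl10a-IP counts of 1358 and 1213 in ES and 4431 and 3769 in ELA and inputs of 1064 and 1058 and 1550 and 1219. The difference of enrichment for Trrap was 1.30 (SE 0.17) (limma adjusted p = 7.54e-08). With the length and GC correction the differences were 0.68 for Ep400 and 0.53 for Trrap, both still called. With it the total RNA of Ep400 was called lower (-0.54) and its rise in ribosome-bound RNA (0.14 against 1.19) was not called. Brd8, a bromodomain subunit of the same complex picked after its value was seen, differed by 0.46 (SE 0.15). A change shared by the subunits of this complex was not tested.

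Setdb1 (chromosome 3, 95323525 to 95357202) moved in opposite directions in the 2 fractions. Its input counts fell from 1634 and 1721 in ES to 952 and 859 in ELA, a change of -0.89 (SE 0.11), while its Rpl10a-IP counts rose from 1678 and 1595 to 2073 and 2038, a change of 0.33 (SE 0.09). The difference of enrichment was 1.22 (SE 0.15) (limma adjusted p = 4.77e-08) and 0.97 with the length and GC correction, with which the rise in ribosome-bound RNA (0.03) was not called. Nsd1 and Elp3 likewise had lower total RNA and higher enrichment. Nsd1, an H3K36 methyltransferase, changed by -0.44 (SE 0.10) in total RNA and by 0.93 (SE 0.15) in enrichment, the latter not called with the correction (0.17), and Elp3, the catalytic subunit of the tRNA-modifying Elongator complex, by -0.66 (SE 0.12) and 0.93 (SE 0.17) (0.91 with the correction). Total RNA change and enrichment difference share the ELA and ES input libraries, so a low ELA input value lowers the first and raises the second.

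Pbrm1 and Chd9 rose in both fractions and in enrichment. Pbrm1 had inputs of 1196 and 1296 in ES and 1740 and 2353 in ELA and an enrichment difference of 1.06 (SE 0.17). For Chd9, a CHD family ATPase, Rpl10a-IP counts were 2221 and 1775 in ES and 5747 and 5800 in ELA, inputs were 1916 and 1892 and 2991 and 2756, and the enrichment difference was 0.95 (SE 0.15). For Prmt10 the difference was 1.31 (SE 0.19), resting on the few ELA input reads given above. Chd1, which binds H3K4-methylated promoters and is needed for open chromatin in ES cells, rose from 4816 and 4404 to 12154 and 13460 in Rpl10a-IP, with an enrichment difference of 0.74 (SE 0.14). With the correction the differences were 0.79 for Pbrm1, 0.31 for Chd9, 1.40 for Prmt10 and 0.42 for Chd1, each still called.

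Smarce1 and Brd7 gave the reverse pattern to Setdb1. Smarce1 (chromosome 11, 99209047 to 99231017) had inputs of 1026 and 1033 in ES and 2148 and 1781 in ELA, a rise of 0.92 (SE 0.11). Its Rpl10a-IP counts went from 1053 and 1026 to 854 and 902, a change of -0.24 (SE 0.09), so that the enrichment difference was -1.17 (SE 0.16) (limma adjusted p = 2.34e-07). Brd7 had inputs of 961 and 868 and 1523 and 1632 and Rpl10a-IP counts of 989 and 1012 and 806 and 865 in ES and ELA, with an enrichment difference of -1.05 (SE 0.16). With the length and GC correction the differences were -1.26 and -1.03, so the correction moved neither by more than its SE, and with it the falls in ribosome-bound RNA were no longer called (-0.14 and -0.15).

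Other genes with lower enrichment in ELA were Set, with a difference of -1.20 (SE 0.13), Ino80c (-0.88 (SE 0.21)), Setd1a (-0.85 (SE 0.17)), Setd1b (-0.79 (SE 0.23)) and Cdyl, a chromodomain reader of repressive marks (-0.57 (SE 0.16)). Set was the only one of these 5 whose total RNA was called lower in ELA, from 26127 and 26439 to 21777 and 20787, and with the correction Set was not called (-0.14) while Setd1b turned from called higher (0.56) to called lower (-0.52). Ino80c rested on 9 and 21 ELA input reads and Setd1b on 20 and 33.

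**Figure D3:**
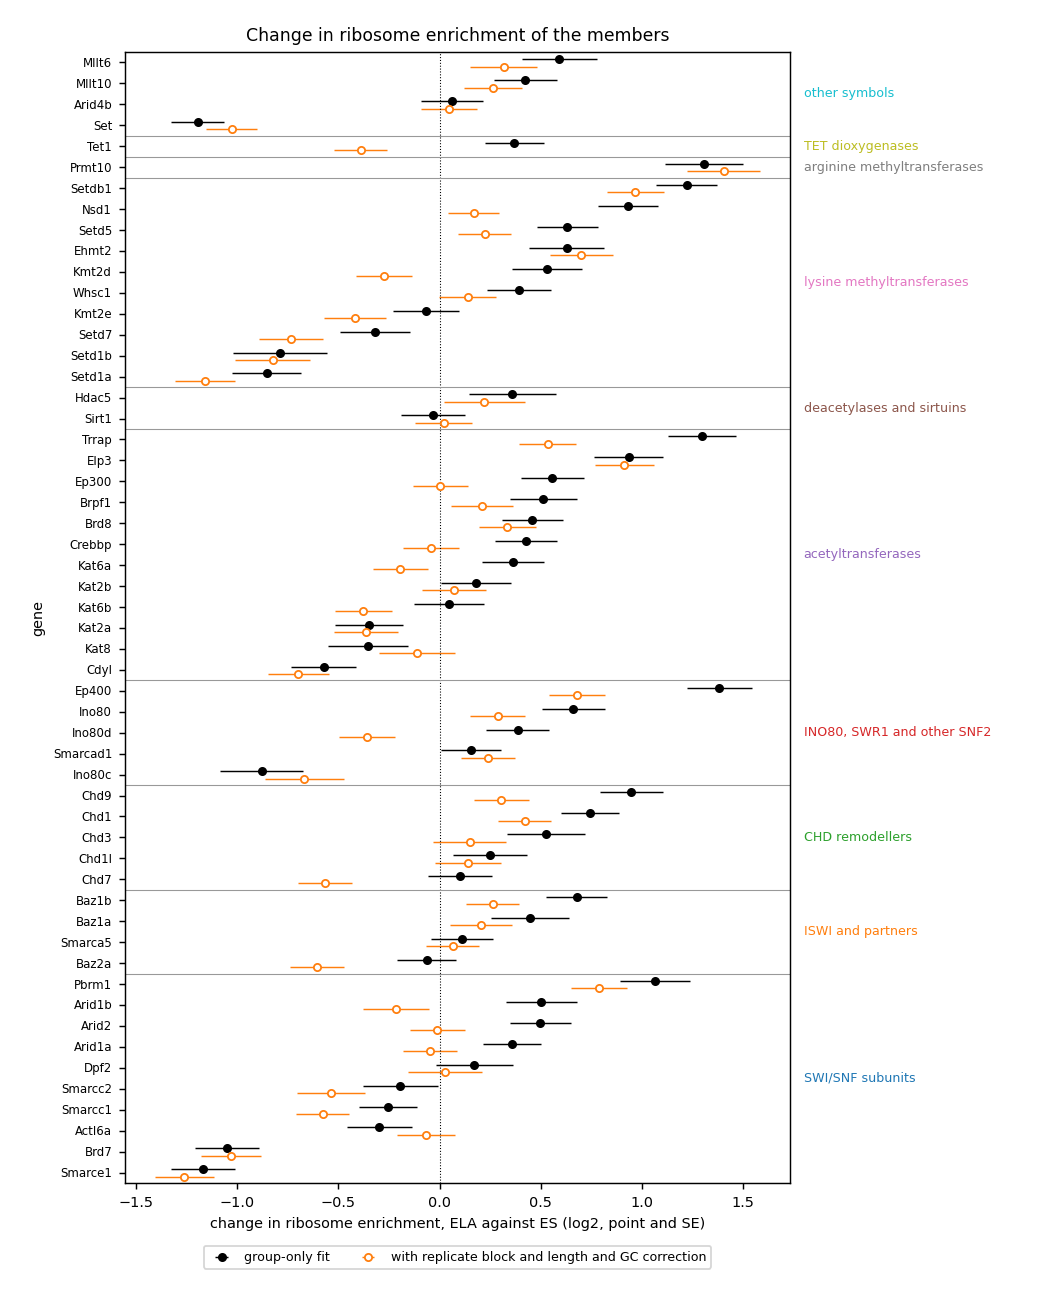
Difference of ribosome enrichment between ELA and ES (x axis, log2, point and SE) for each of the 54 chromatin genes (y axis, grouped by role), from the fit on group alone (black) and from the fit with the replicate block and the length and GC correction (orange). Most orange points lie left of the black ones; Setdb1, Pbrm1, Prmt10 and Elp3 stay at the right and Smarce1, Brd7 and Set at the left in both.

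By role, the counts in the 2 fits were read against 28.4% and 27.7% of all genes called higher and lower in enrichment (27.5% and 25.9% with the correction). Of the 10 SWI/SNF subunits 4 were higher in enrichment and 2 lower, and with the correction 1 was higher and 4 lower. In total RNA 6 of them were higher and 0 lower, with the correction 6 and 1 (all genes 34.5% and 35.8%, with the correction 32.7% and 37.5%). Of the 10 lysine methyltransferases 6 were higher in enrichment and 2 lower, and with the correction 2 and 4. Their total RNA was higher for 7 and lower for 3, with the correction for 5 and 4, against the same shares of all genes in total RNA. Among the 12 acetyltransferases and partners 7 were higher in enrichment and 1 lower (the reader Cdyl, grouped here by symbol), against 3 and 3 with the correction. The 5 CHD genes had 4 higher and 0 lower in ribosome-bound RNA (median 1.47), and the same 4 with the correction (median 0.60), Chd1l being the gene not called. Over all genes 41.1% and 42.3% were called higher and lower in ribosome-bound RNA, and 39.1% and 38.7% with the correction. In the ISWI group Baz1b, the WSTF partner of Smarca5, had the highest enrichment difference (0.68 (SE 0.15), 0.26 with the correction and then not called), and Baz2a, of the nucleolar remodelling complex, the lowest (-0.06 (SE 0.15), not called). In the CHD group Chd7 was lowest (0.10 (SE 0.16), not called). With the correction both were called lower, Baz2a at -0.61 and Chd7 at -0.57. Hdac5 differed by 0.36 (SE 0.21) and Sirt1 by -0.03 (SE 0.16), neither called. Tet1 differed by 0.37 (SE 0.15) (limma adjusted p = 0.0308) and by -0.39 with the correction, called in opposite directions by the 2 fits, and Mllt6 by 0.59 (SE 0.19), not called with the correction (0.32) or without ES input replicate 1 or ES Rpl10a-IP replicate 2. Tet1 was also not called when scaled by total reads or by the deposited factors, nor in 5 of the 8 fits that left out 1 library (without ES input replicate 1 or 2, ES Rpl10a-IP replicate 2, ELA input replicate 2 or ELA Rpl10a-IP replicate 2).

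Transcript length, which the choice by symbol did not use, was high among these genes. Their median transcript was 6420.5 bases long against 3693 over the 3120 genes with a length, and their median coding sequence 3859.5 against 1623 bases. Across the 54 genes, which share libraries and are not replicates, the enrichment difference correlated with log2 transcript length at r = 0.437, and across all 3120 genes at r = 0.478. Of the 34 genes over 5 kb, 23 were higher in enrichment and 2 lower (Setd1a and Setd1b), with a median of 0.42. Of all 902 genes over 5 kb, 441 were higher and 92 lower, with a median of 0.37. With the correction 5 of the 34 were higher and 10 lower, and of the 902 262 and 220. Of the 20 shorter ones, among them Smarce1 (2919 bases), Set (2834 bases) and Brd7 (3625 bases), 6 were higher and 5 lower, with a median of 0.07 against -0.14 for all 2218 genes of that length, of which 452 were higher and 774 lower. After the correction r was 0.0221 among the 54 and 0.0283 over all genes, as it was built to be.

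**Figure D4:**
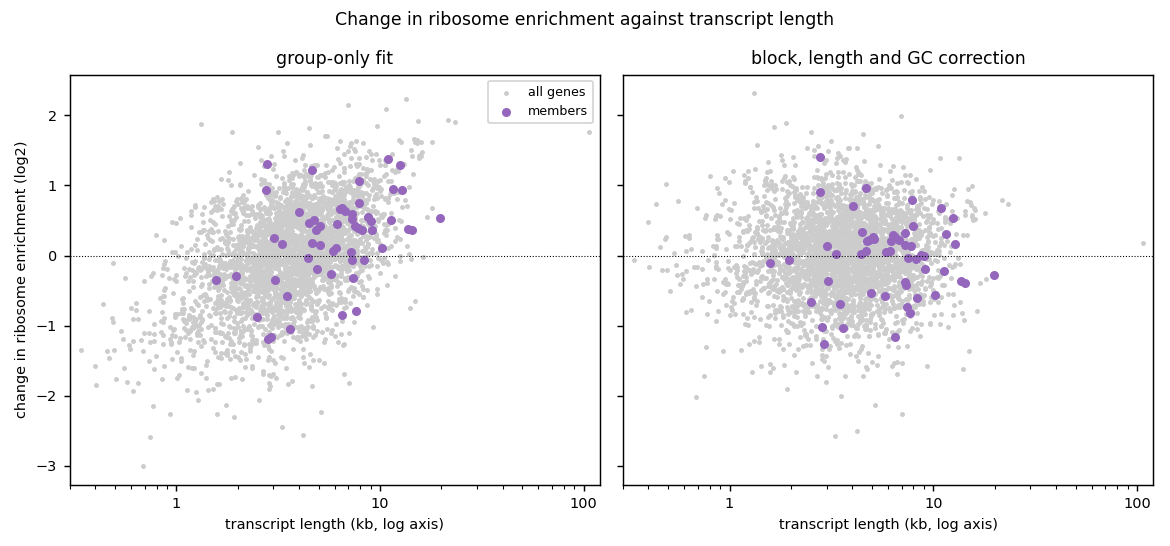
Difference of ribosome enrichment between ELA and ES (y axis, log2) against transcript length (x axis, kb, log scale) for the genes with a length (grey) and the 54 chromatin genes (purple), in the fit on group alone (left) and with the replicate block and the length and GC correction (right). The slope seen on the left among both grey and purple points is absent on the right.

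Other subunits and partners of these complexes, a list of 81 genes from COMPASS, SAGA, NuA4, Sin3 and NCoR of which 34 were in the table, were set beside them. Their enrichment was higher in ELA for 11 and lower for 7 (28.4% and 27.7% of all genes), with a median of 0.17. In total RNA 8 were higher and 11 lower (34.5% and 35.8% of all genes). In ribosome-bound RNA 12 were higher and 18 lower (41.1% and 42.3% of all genes), with a median of -0.29. With the correction, over the 33 partners with a transcript length, the counts were 9 and 6 for enrichment (all genes 27.5% and 25.9%), 7 and 15 for total RNA (32.7% and 37.5%) and 12 and 15 for ribosome-bound RNA (39.1% and 38.7%). The partners were shorter, with a median transcript of 3800 bases, and with the correction their median change in ribosome-bound RNA was 0.11.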

How the data were processed

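RNA was sequenced after removal of ribosomal RNA. Per the labels and the study's methods, the authors used TopHat2 to map reads to the mouse transcriptome (mm10), counted them per gene with HTSeq (strand not stated) and divided them by a DESeq2 size factor per library. The deposited signal values are these normalised counts, in a table the authors had filtered on depth and replicate agreement. Its 26 other columns hold means, SDs and the authors' ratio and log2 comparisons, which were not used. Reads were read back as whole multiples of 1 step per library (100% of values, tolerance 1e-06).

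Libraries were scaled by trimmed means of M values. Log2(value + 1) was fitted with limma 3.58.1 (R 4.3.3; lmFit, eBayes with trend), 1 coefficient per group, with Benjamini-Hochberg adjustment over 3160 genes and a two-sided threshold of 0.05; the fold of a low gene is understated on this scale. ES enrichment and ribosome-bound change used 7 libraries (without ELA input replicate 1), the others 8. On simulated data the fit returned the size of known changes, but its share of false calls was above the threshold for ELA enrichment and total RNA, which rest on the shallow ELA inputs. Lengths and GC came from the longest coding transcript in GENCODE M1, coordinates and current symbols from RefSeq (GRCm38.p6; 54 of 54 genes matched). The correction was a loess (span 0.5) per library over 3120 genes. Named genes were the 5 largest called rises and falls of each comparison and the highest and lowest enrichment difference of each role. Others are named where a count or pattern includes them and were chosen after their values were seen. The genes and lists were chosen with earlier results of these data known.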

Additional observations from a re-analysis of the deposited data

Results flagged for a closer look

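For 15 of the genes named by rule, the Rpl10a-IP over input ratio differed between ES and ELA by the test of that difference itself (stage by fraction, limma adjusted p under 0.05). The ratio was higher in ELA, on the log2 scale, for Ep400 (1.38), Prmt10 (1.31), Trrap (1.30), Setdb1 (1.22), Pbrm1 (1.06), Chd9 (0.95), Baz1b (0.68), Mllt6 (0.59) and Tet1 (0.37). It was lower for Set (-1.20), Smarce1 (-1.17), Brd7 (-1.05), Ino80c (-0.88), Setd1a (-0.85) and Cdyl (-0.57). With the length and GC correction 12 of the 15 kept their call and direction, Baz1b (0.26) and Mllt6 (0.32) were not called, and Tet1 (-0.39) was called lower. Mllt6 was also not called in 2 of the 8 fits without 1 library, and Tet1 in 5 of them and under both the total-read and the deposited scaling.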

How the results depend on the processing

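Replicate numbers in the labels are shared by all groups. Between stages nothing tied them, and deviations of same-numbered libraries correlated at r = 0.153 (inputs) and -0.025 (Rpl10a-IP). Within a stage the input was drawn from the lysate used for Rpl10a-IP, so same-numbered libraries may be paired. Their deviations correlated at r = 0.170 in ES and 0.504 in ELA. The table was filtered on how closely the ratios of these libraries agreed, which can itself raise r, so r cannot show pairing. With a replicate block within each stage the counts higher and lower were 7 and 14 for ES enrichment, 28 and 13 for ELA enrichment and 29 and 8 for the change in enrichment, and no single-gene call given by rule changed. With the replicate block alone the counts higher and lower were 7 and 14 for enrichment in ES, 28 and 13 in ELA, and 26 and 13 for total RNA, and here no count of calls moved by more than 1.5 times. Adding the length and GC correction to the block moved lower calls to 23 for ELA enrichment, 20 for total RNA, 20 for ribosome-bound RNA and 17 for the change in enrichment, higher calls to 18 for ribosome-bound RNA and 10 for the change in enrichment, and the medians to -0.041, 0.014, -0.047 and 0.024 in the same order. Under it, among the genes named by rule, the change in enrichment turned sign for Chd7 (-0.57), Sirt1 (0.021) and Tet1 (-0.39). Genes outside these turned too, such as Ino80d, from called higher to called lower. Scaling by total reads gave medians of 0.16 (ELA enrichment), 0.25 (total RNA), 0.35 (ribosome-bound RNA) and 0.27 (change in enrichment, with 11 lower calls). The deposited scaling gave medians of 0.088 (total RNA) and 0.27 (ribosome-bound RNA), and the ELA inputs summed as 1 sample 0.20 for total RNA. With all 8 libraries 6 genes were depleted in ES. The cause of these moves was not tested.

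Leaving out 1 library at a time, the counts higher and lower ranged over 2 to 8 and 3 to 14 for ES enrichment (median -0.11 to -0.02), 23 to 28 and 12 to 15 for ELA enrichment (0.22 to 0.27), 23 to 25 and 12 to 16 for total RNA (0.13 to 0.24), 31 to 32 and 10 to 12 for ribosome-bound RNA (0.36 to 0.43), and 16 to 28 and 6 to 10 for the change in enrichment (0.31 to 0.42). Among the genes named by rule, the change in enrichment turned sign for Baz2a without ES Rpl10a-IP replicate 1 (0.020, range down to -0.15). It also did so for Chd7 without ELA input replicate 2 (-0.070, up to 0.28) and for Sirt1 without ES input replicate 1 (0.13, down to -0.20). Of the 59 single-gene results 55 never turned sign; library weights, the block within each stage and the ELA sum were chosen after seeing the data. Count models were not run, since tests were held to the deposited unit, nor was the deposited scaling for enrichment within a stage, since its factors were made within a fraction.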

Other observations

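Paralogues with overlapping roles differed from each other in total RNA. These pairs were picked after their values were seen, and the differences between paralogues were not tested. Smarcc2, the BAF170 scaffold, rose from 295 and 234 in ES input to 707 and 710.2 in ELA input (1.43 (SE 0.13) on the log2 scale), while its paralogue Smarcc1, the BAF155 scaffold, had 6567 and 6225 and 7150 and 6445 (0.09 (SE 0.10), not called). Smarcc2 was also higher in ribosome-bound RNA, from 257 and 229 to 557 and 589 (1.24 (SE 0.11)), and both of its changes were called with the length and GC correction (1.18 and 0.65). Per kb, Smarcc1 still stood above Smarcc2 in ELA input, at 1177 against 144.

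Kat2b and Kat6b fell as described, whereas their paralogues did not. Kat2a, the GCN5 acetyltransferase of SAGA, had inputs of 602 and 592 in ES and 679.7 and 763 in ELA (0.27 (SE 0.12)), and Kat6a had 2119 and 2179 and 2991 and 2470 (0.34 (SE 0.11), 0.11 with the correction and then not called). Ehmt2, the H3K9 methyltransferase G9a, changed by -0.77 (SE 0.13) in total RNA from 863 and 630.0 to 408 and 456. The ELA values rest on 15 and 43 reads. Its enrichment rose by 0.63 (SE 0.19). Setdb1 also had lower total RNA and higher enrichment in ELA. Over all genes 35.8% were called lower in total RNA and 28.4% higher in enrichment. Both measures use the input libraries, so a low ELA input value gives both changes, and a pattern shared by H3K9 enzymes was not tested. With the correction the total RNA of Ehmt2 changed by -1.34, and its ribosome-bound RNA turned from not called (-0.15) to called lower (-0.64). Whsc1, now named Nsd2, an H3K36 methyltransferase, rose from 1035 and 1043 to 2311 and 2777 in input (1.28 (SE 0.11)), opposite in direction to its paralogue Nsd1 (-0.44 (SE 0.10)). With the correction the changes were 0.80 and -0.76, both still called.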
